A study of Mus musculus with 22 samples.

Results

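Polysome and subpolysome RNA of normal mouse bladder urothelial organoids was compared. Urothelial organoids are cultures of bladder lining epithelium grown in 3 dimensions. The 6 libraries were chosen by their titles, 3 labelled WT polysome fraction and 3 labelled WT subpolysome fraction, of 22 libraries in the series. Both fractions came from lysates run on sucrose gradients of 10 to 50%, and libraries with the same replicate number were treated as a pair. All 6 libraries are ARID1A WT, with no treatment, age or mouse strain given in the labels. Total RNA of WT organoids (3 libraries) served as a level before fractionation, and the polysome and subpolysome libraries labelled ARID1A KO (3 each) as the same comparison in a second genotype. The labels do not say whether the numbered replicates are separate animals, cultures or passages, nor where the cut between the fractions lay, so the p-values below rest on differences among libraries that could be technical repeats. The comparison addresses which mRNAs are at higher or lower levels in polysomes than in subpolysomes of this tissue, relative to the bulk of mRNAs.

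A polysome is an mRNA carrying several ribosomes at once, and such particles sink deep into a sucrose gradient. The subpolysome fraction holds lighter material: free messenger particles, mRNAs with a ribosomal subunit or few ribosomes, and noncoding RNA. A short reading frame has room for few ribosomes, so protein length sets part of where an mRNA sediments. The best known class with controlled loading are the TOP mRNAs, which begin at the cap with a C and a run of C or T (a terminal oligopyrimidine tract). They encode ribosomal proteins and translation factors, and signalling through mTORC1 and the cap-binding protein LARP1 is known to move them between free particles and polysomes.

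The libraries carried the markers of their tissue label. All 12 basal and all 15 luminal urothelial markers were tested, with summed levels of 8653 to 10495 CPM (read counts scaled to library size) for the basal list in polysomes, 8038 to 9126 CPM in subpolysomes and 15274 to 18175 CPM in total RNA. Fibroblast, immune, endothelial and smooth muscle lists summed to at most 11.7 CPM in any of these 9 libraries. Total counts were 64911189 to 72852006 in polysome libraries and 45190903 to 48441105 in subpolysome libraries, so that 1 such CPM stands for at least 45.2 counts. The gene values below are scaled further, to the bulk of genes. With factors of 0.698 to 0.810, 1 scaled CPM stands for fewer counts in subpolysome libraries. Because the libraries are bulk, fewer contributing cells of a type and less RNA per cell cannot be told apart. How much RNA each fraction held is not given, so every ratio below is a level in polysomes relative to subpolysomes after scaling to the bulk of genes (TMM), not the share of an mRNA's molecules that carry ribosomes.

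The fractions differed across most of the transcriptome. Of 12847 genes tested with edgeR's quasi-likelihood test with replicate as a block, 4640 (36.1%) were higher in polysomes and 4320 (33.6%) lower at a Benjamini-Hochberg adjusted p below 0.05. At least 2-fold higher were 2015 genes (15.7%), and at least 2-fold lower 2269 (17.7%). These shares of all genes are the background for each count of list members below. The 3 polysome and 3 subpolysome libraries did not overlap for 9076 genes, 70.6% of those tested, and 10346 genes moved in the same direction in 3 of 3 pairs. The median log2 ratio over all genes was 0.03. With libraries scaled by total counts alone that median was 0.87, a shift of 0.84, with 8253 genes higher and 1692 lower; 17 of 41 list medians then changed sign, and such lists are marked where they are described. Of the genes named below, Btf3, Dst, Flna, Itgb4, Krt15, Krt5, Lama3, Odc1, Pparg, Psmb1, Psmd4, Rsrp1, Tfrc, Trp63 and Wsb1 also turned positive with it. With total counts outside the ribosomal protein and oligopyrimidine mRNAs described next, a scaling chosen after seeing the data, 4543 genes were higher and 4445 lower. The plot of gene lists shows the order from noncoding RNAs at the low end to proteasome subunits at the high end.

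**Figure D1:**
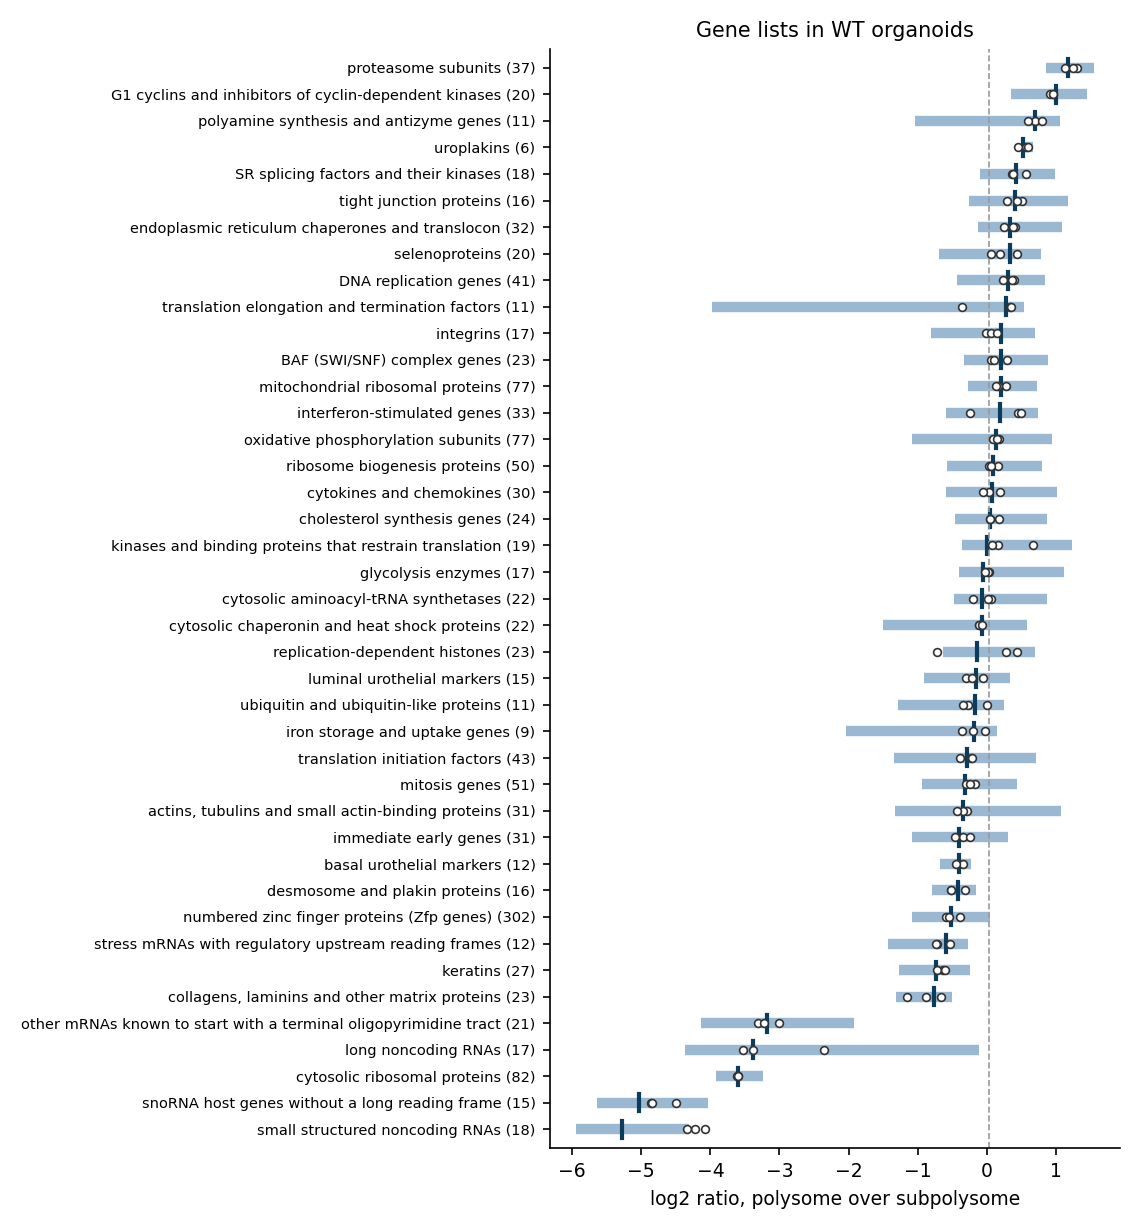
Log2 ratio of polysome over subpolysome (x axis) for 41 gene lists (y axis, number of genes tested in brackets) in WT organoids; dark marks are list medians from the fit, bars run from the lower to the upper quartile over genes, circles are the list medians in each of the 3 pairs, and the dashed line is the median of all genes tested. The pair values, made with a prior count of 2, lie nearer to 0 than the fit where counts are low, as for small structured noncoding RNAs. The 5 lists at the bottom have medians of -3.18 or lower, and proteasome subunits at the top have 1.17.

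Ribosomal protein mRNAs and the other TOP mRNAs held a far larger share of subpolysome counts than of polysome counts. Together these 103 mRNAs held 6.13, 6.87 and 6.71% of all counts in the polysome libraries, against 46.8, 49.4 and 50.2% in the subpolysome libraries and 14.3, 14.3 and 14.4% in total RNA. The lowest subpolysome share was thus well above the highest polysome share, with total RNA between the fractions. Total RNA did not lie between the fractions for every list. Mean shares in polysomes, subpolysomes and total RNA were 1.30, 1.18 and 1.94% for keratins, and 0.155, 0.136 and 0.437% for matrix genes. For oxidative phosphorylation genes they were 1.90, 1.69 and 1.02%. The total RNA libraries therefore cannot be read as a plain sum of these 2 fractions. Of 82 ribosomal protein mRNAs, 81 were lower in polysomes (33.6% of all genes were) and 1 higher, with a median log2 ratio of -3.60 and pair medians of -3.62, -3.60 and -3.60. Of 21 other mRNAs of the TOP list 20 were lower and none higher, with a median of -3.18. With total-count scaling the medians were -2.76 and -2.34.

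**Figure D2:**
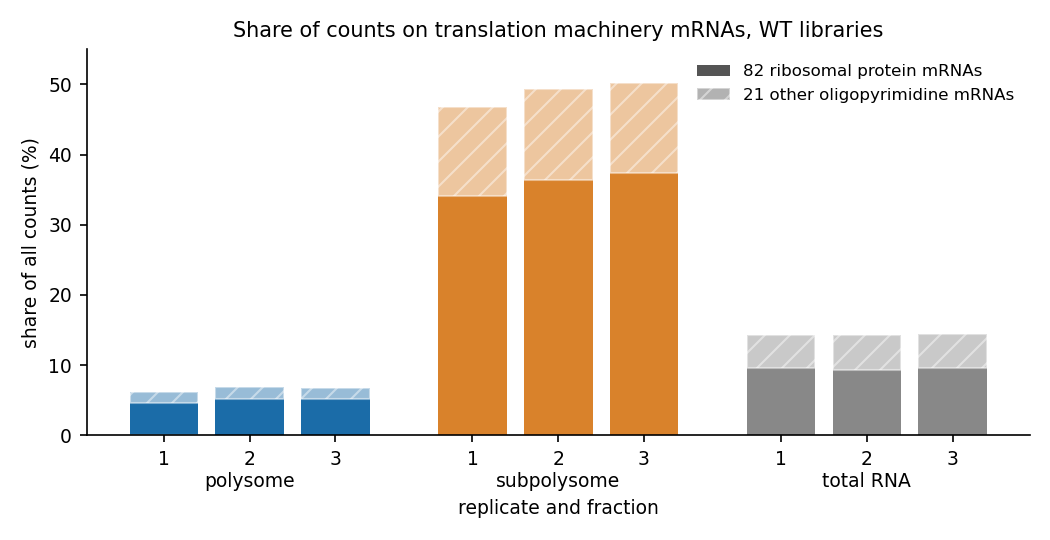
Share of all counts (y axis, %) taken by 82 ribosomal protein mRNAs (solid) and 21 other oligopyrimidine mRNAs (hatched) in each WT polysome, subpolysome and total RNA library (x axis, 3 replicates each). The shares sum to 6.13 to 6.87% in polysomes and 46.8 to 50.2% in subpolysomes, with 14.3 to 14.4% in total RNA.

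The shift covered both ribosomal subunits. The 33 small subunit mRNAs had a median log2 ratio of -3.71 and the 49 large subunit mRNAs one of -3.48. Rpl41, which encodes the shortest ribosomal protein at 25 residues, had 109.9, 127 and 137 scaled CPM in polysomes, against 7744, 9670.3 and 10598 CPM in subpolysomes (log2 -6.22, SE 0.0779, edgeR adjusted p = 2.76e-26). Every polysome library lay far below every subpolysome library. Rpl4, a large subunit protein of 419 residues, had 1109, 1135 and 1014 CPM in polysomes, against 16432, 16415 and 16381 CPM in subpolysomes (log2 -3.92, SE 0.0644, adjusted p = 1.09e-24). Rplp0, the base of the ribosomal stalk, stood at log2 -4.17 and Rps12 of the small subunit at -5.52. The 10 ribosomal proteins under 100 residues had a median of -4.74, those of 100 to under 200 residues -3.55 and those of 200 or more -3.55. Thus even the long members were low in polysomes. The single exception, Rpl34, had 5.97, 6.27 and 8.04 CPM in polysomes, against 2.77, 2.34 and 2.46 CPM in subpolysomes, and Rpl30 was similarly low at 1.91, 1.91 and 1.63 CPM against 5.08, 4.89 and 5.71 CPM. For abundant mRNAs such levels are very low, and ribosomal protein genes have many near-identical pseudogene copies; how reads matching several places were treated is not given, so both genes are uncertain.

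The other TOP mRNAs followed the same pattern with 1 exception. Eef1a1 encodes the factor that brings aminoacyl-tRNA to the ribosome and had 2287, 2447 and 2023 CPM in polysomes, against 45955, 45257 and 45644 CPM in subpolysomes (log2 -4.34, SE 0.0611, adjusted p = 8.57e-26). Eef2, the translocation factor, had 1661, 1664 and 1879.8 CPM in polysomes, against 40273, 50554 and 54481 CPM in subpolysomes (log2 -4.79, SE 0.0646, adjusted p = 5.37e-26), the most negative ratio of this list although the protein has 858 residues. Pabpc1, the poly(A)-binding protein, had 336, 295 and 272 CPM in polysomes, against 7786, 7583 and 7195 CPM in subpolysomes (log2 -4.65, SE 0.0751). For none of these did the libraries of the fractions overlap. Tpt1, a small translationally controlled tumour protein, stood at log2 -4.41. Btf3, a subunit of the nascent polypeptide-associated complex, did not pass the test, with 619.8, 717 and 657 CPM in polysomes, against 668, 733 and 704 CPM in subpolysomes (log2 -0.08, adjusted p = 0.362), but was called lower when only genes with at least 10 CPM in 3 libraries were tested (-0.22, adjusted p = 0.00814).

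The feature that names the class stood at the annotated start of only some members. The first 25 bases are shown for list members with and without it, for RNAs outside the lists that were as low, again with and without it, and for mRNAs that were high in polysomes; capitals mark the run of at least 5 C or T at the first base or, where there is none, the longest such run in the window. Where any basic transcript of a gene begins with a C and 4 further C or T, that transcript is shown (1 of 16 for Tpm1, 2 of 5 for Gas5). Sequences are from GENCODE vM21 on mm10, written along the transcript.
Rpl13a (chr7:45128602-45128626, minus strand): CTCCCCgccgcttgtgcgatgggac
Rpl4 (chr9:64173375-64173399, plus strand): CTTTTCCTgtgggagcagccgggta
Eef1b2 (chr1:63177130-63177154, plus strand): CTTTTTTTCCCTCagcgctggccgc
Pabpc1 (chr15:36608949-36608973, minus strand): CCCCTTCTCCCCggcggttagtgct
Eif3f (chr7:108934417-108934441, plus strand): CTCTTTCTCggcaagatggcttctc
Eef2 (chr10:81176631-81176655, plus strand): gttgacgtcagcggTCTCTTCCgcc
Eef1a1 (chr9:78481700-78481724, minus strand): TTCCCgagggtgggggagaacggta
Rpl41 (chr10:128549281-128549305, minus strand): aggtgctggtgttgaaataatacaa
Gas5 (chr1:161034929-161034953, plus strand): CCCCTCagcctgtactcctcaggga
Tmsb4x (chrX:167209125-167209149, minus strand): CTTCTgagcagatcagactctcctc
Cox7a2l (chr17:83514306-83514330, minus strand): CCTTTTCTagggcggtcgcacaggc
Sepw1 (chr7:15922378-15922402, minus strand): gcacttggtttgctctgactcgtga
Qars (chr9:108507706-108507730, plus strand): ccggaacttttgCTCTCCgacaaga
Cldn4 (chr5:134946910-134946934, minus strand): CTTTCTTgttgcaggtgcaggcagg
Tpm1 (chr9:67049148-67049172, minus strand): CTCTCgctccgctgcctaagggccc
Pcna (chr2:132253290-132253314, minus strand): gCCTTTgcatacgcggtggggcggg
Prdx1 (chr4:116685887-116685911, plus strand): cgatagagggcggagatggcttggt
In Rpl13a, Rpl4, Eef1b2, Pabpc1 and Eif3f the run begins at the first base with a C, and in Eef2 only at base 15 of the annotated start. The run of Eef1a1 begins at the first base with a T, and Rpl41 has none in the window. Gas5, Tmsb4x and Cox7a2l, which are in neither list, begin with a C and a run of C or T as well, and their log2 ratios were -5.68, -5.18 and -4.38. Sepw1 and Qars, also in neither list, do not begin this way and were as low, at -5.30 and -4.38. Cldn4 and Tpm1 begin with a C and such a run but were higher in polysomes, with log2 ratios of 1.16 and 1.08. Pcna has a short run from its second base and Prdx1 none; both were among the 12 highest genes.

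Letters at the annotated start were a weak marker across genes. A start of C followed by 4 bases that are each C or T, read along the transcript in any basic transcript, was found for 585 of 12771 genes (4.58%), for 21 of 82 ribosomal protein genes and for 8 of 21 other TOP genes. Outside both lists, 556 genes with such a start had a median log2 ratio of -0.14, against 0.05 for genes without it. Within the ribosomal proteins, the 21 genes with it had a median of -3.80, against -3.51 for the 61 without it. Annotated starts are not mapped cap sites of this tissue, so a missing run says only that these letters do not stand at that annotated base.

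Translation factors of the TOP list were all lower in polysomes, while the others varied, a split made after the values were seen. The 7 initiation factors of that list were all lower in polysomes, with a median log2 ratio of -3.18. Of the 36 other initiation factors 17 were higher and 17 lower, with a median of 0.02. At least 2-fold lower were 6 of these, with the lowest at -3.10. The median of all 43, -0.29, becomes 0.55 with total-count scaling. Likewise the 5 elongation factors of the list were all lower (median -4.13), while of 6 other elongation and termination factors 5 were higher and none lower (median 0.54). Eif4b, a cofactor of the helicase eIF4A, had 393, 430.4 and 375 CPM in polysomes, against 8169.7, 9636 and 9867 CPM in subpolysomes (log2 -4.53, SE 0.078, adjusted p = 2.2e-24). Eif6, which keeps the large subunit apart from the small one, had the highest ratio of the initiation factors at log2 2.29 (SE 0.0974), and Eif5a, which helps ribosomes through runs of proline, stood at 1.21. Eif4e, the cap-binding protein, was higher in polysomes at 0.80 and Eif4a2, a helicase, lower at -1.86.

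The subunits of eIF3, the large scaffold of initiation, did not move as 1 unit. Of its 12 subunits, 10 were lower and 2 higher (33.6 and 36.1% of all genes were), with a median log2 ratio of -1.75. Eif3f had 163, 151 and 167 CPM in polysomes, against 2543, 2719 and 2614 CPM in subpolysomes (log2 -4.04, SE 0.083, adjusted p = 5.85e-23). Eif3b had 152, 141 and 140.5 CPM in polysomes, against 77.1, 75.8 and 71.4 CPM in subpolysomes (log2 0.95, SE 0.0927, adjusted p = 1.67e-09). The fractions did not overlap for either gene, and the genes moved in opposite directions. Eif3e and Eif3h, 2 further subunits, stood at -3.18 and -3.49, and Eif3a, the core subunit, at 0.29. Eif3e, Eif3f and Eif3h are among the 7 initiation factors of the TOP list described above, so their values are not a separate result.

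Other genes of the translation apparatus showed no common shift. Of 22 cytosolic aminoacyl-tRNA synthetase genes 9 were higher and 9 lower, and their median of -0.07 becomes 0.77 with total-count scaling. Qars, the glutamine enzyme, had 82.4, 84.01 and 80.5 CPM in polysomes, against 1557, 1701 and 1895 CPM in subpolysomes (log2 -4.38, SE 0.0911, adjusted p = 7.46e-23), while Dars, the aspartate enzyme, and Wars, the tryptophan enzyme, were higher at 1.76 and 1.71. Genes of ribosome biogenesis divided evenly, 21 higher and 21 lower of 50 (median 0.09). Of 77 mitochondrial ribosomal protein genes 36 were higher and 22 lower, where 36.1 and 33.6% of all genes were (median 0.21). Among 19 kinases and binding proteins that restrain translation, 9 were higher and 5 lower; Eef2k, the kinase of eEF2, stood at 1.29, Pdcd4, an inhibitor of eIF4A, at 1.36 and Eif4ebp2, an inhibitor of eIF4E, at -2.08.

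Host genes of small nucleolar RNAs and small structured RNAs lay at the far low end, and other long noncoding RNAs less far down. All 15 host genes of small nucleolar RNAs that were tested were lower in polysomes, with a median log2 ratio of -5.03, and of 435 RefSeq lncRNA genes 259 were lower, 25 higher and the others not called (median -1.53). Gas5, a spliced host of small nucleolar RNAs, had 33.8, 46.7 and 51.4 CPM in polysomes, against 1859.8, 2378 and 2465 CPM in subpolysomes (log2 -5.68, SE 0.0909, edgeR adjusted p = 9.23e-25). Snhg1 had 15.3, 18.99 and 21.1 CPM in polysomes, against 355, 408 and 471 CPM in subpolysomes, and Snhg12 3.30, 2.50 and 2.18 CPM in polysomes, against 100.1, 99.04 and 90.8 CPM in subpolysomes. For each of these 3 every polysome library lay far below every subpolysome library. Of 18 small structured noncoding RNAs tested, 17 were lower and none higher (median -5.28, at low counts).

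Long noncoding RNAs known from the nucleus were low in polysomes too. Malat1, a nuclear speckle RNA, had 4.34, 2.98 and 2.69 CPM in polysomes, against 90.6, 115 and 124 CPM in subpolysomes (log2 -5.04, SE 0.164, adjusted p = 9.96e-19). Neat1, the scaffold of paraspeckles, had 24.1, 17.7 and 15.5 CPM in polysomes, against 353, 241 and 249 CPM in subpolysomes (log2 -3.88, SE 0.103). H19, an imprinted lncRNA, had 8.02, 6.24 and 6.04 CPM in polysomes, against 154, 124 and 146 CPM in subpolysomes (log2 -4.38, SE 0.114). For none of them did the fractions overlap. Of the list of 17 known lncRNAs 11 were lower and 3 higher; among the higher were Tug1 (log2 0.45) and Mir22hg (0.88).

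**Figure D3:**
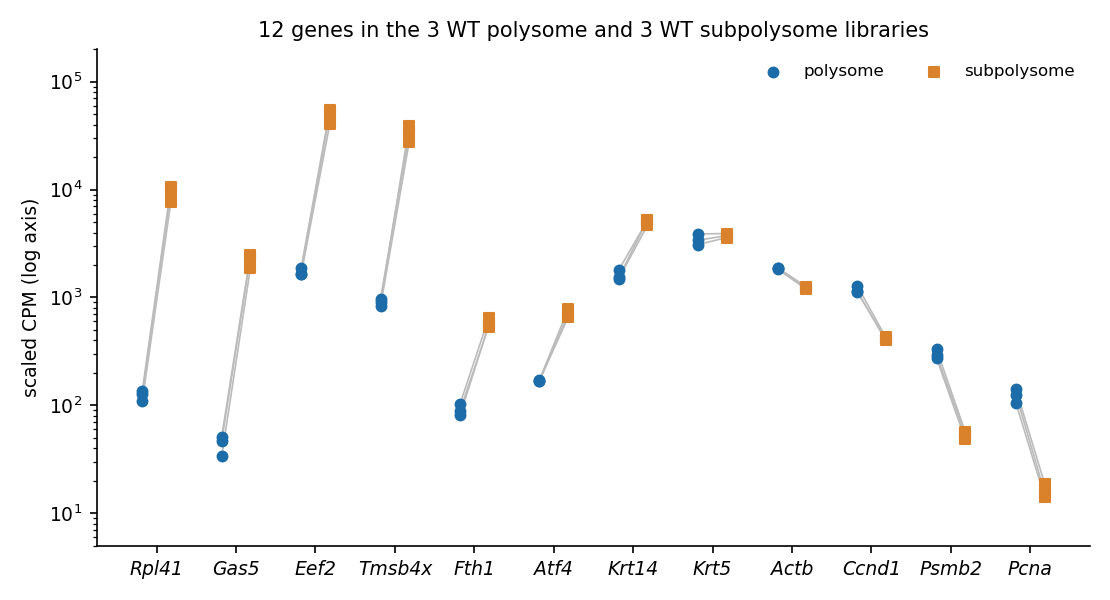
Scaled CPM (y axis, log axis) of 12 genes (x axis) in the 3 WT polysome libraries (circles) and the 3 WT subpolysome libraries (squares), with lines joining pairs. From Rpl41 to Krt14 every polysome library lies below every subpolysome library, Krt5 differs little, and from Actb to Pcna every polysome library lies above.

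Protein length went with the ratio, with a peak in the middle of the range. Of 260 tested genes for proteins under 100 residues 160 were lower and 41 higher in polysomes, with a median log2 ratio of -0.98. The median was 0.21 for 1362 genes of 100 to under 200 residues, 0.51 for 3555 genes of 200 to under 400 residues and 0.10 for 4526 genes of 400 to under 800 residues. It was -0.34 for 2006 genes of 800 to under 1600 residues and -0.57 for 515 genes of 1600 residues or more, of which 317 were lower and 31 higher. The medians of the 3 pairs kept this order, with an SD between pairs of at most 0.12 in any bin. Leaving out the ribosomal protein and TOP lists gave -0.88 in the first bin and 0.52 in the bin of 200 to under 400 residues. Across 12224 genes of 1 fit, which share their libraries, Spearman's rho between residues and log2 ratio was -0.22, made up of 0.23 among 3354 genes under 300 residues and -0.32 among 8870 longer ones. Since scaling by total counts alone moves the median of all genes by 0.84, the order of the bins holds more firmly than their sign.

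**Figure D4:**
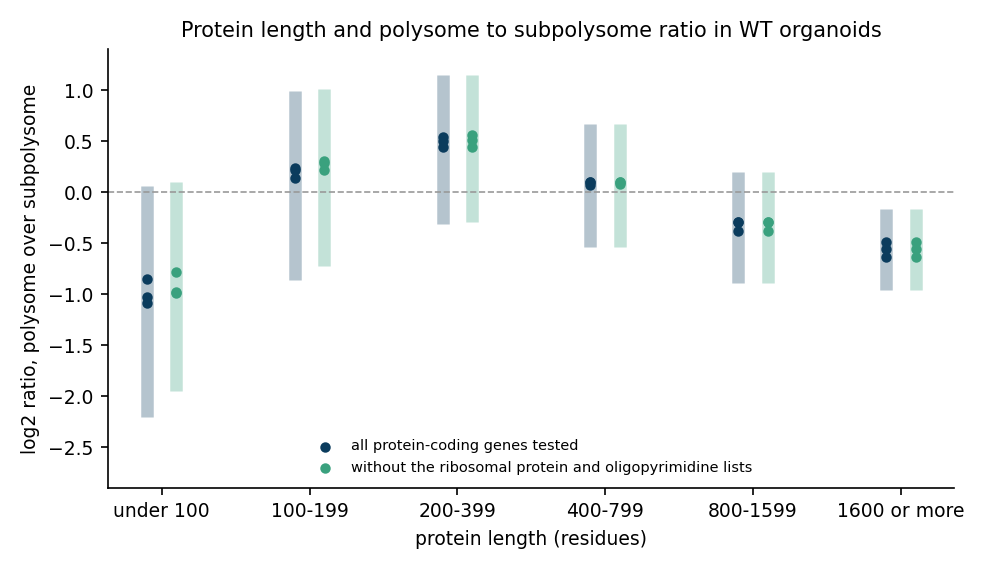
Log2 ratio of polysome over subpolysome (y axis) by protein length in residues (x axis, 6 bins) for protein-coding genes in WT organoids, with and without the ribosomal protein and oligopyrimidine lists; points are bin medians in each of the 3 pairs and bars run from the lower to the upper quartile over genes. Medians peak at 0.51 in the bin of 200 to under 400 residues and are lowest, at -0.98, under 100 residues.

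Very short and very long proteins outside the TOP lists show both ends. Tmsb4x, the actin-sequestering thymosin of 44 residues, had 837, 977 and 908 CPM in polysomes, against 27698, 33152 and 38680.5 CPM in subpolysomes (log2 -5.18, SE 0.072, adjusted p = 8.19e-26), and its relative Tmsb10, also of 44 residues, stood at -3.01. Sepw1, a selenoprotein of 88 residues, had 36.3, 32.5 and 44.9 CPM in polysomes, against 1364, 1449.7 and 1644 CPM in subpolysomes (log2 -5.30, SE 0.0963). Ost4, a membrane subunit of the oligosaccharyltransferase with 37 residues, stood at -3.63. At the other end, Dsp, which anchors keratin filaments at desmosomes and has 2883 residues, stood at -1.07, Lama3, a laminin chain of 3330 residues, at -0.76 and Dst, a plakin of 7393 residues, at -0.67; with total-count scaling Lama3 stood at 0.078 and Dst at 0.17, on the other side of 0. Flna, an actin crosslinker of 2639 residues, was close to the bulk at -0.27.

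Length also went with the ratio within single lists. Of 77 oxidative phosphorylation genes 36 were higher and 31 lower (median 0.14), but the 19 for proteins under 100 residues had a median of -1.13 with 13 lower and 3 higher, and the 58 longer ones 0.47 with 18 lower and 33 higher. Uqcr10 (64 residues) and Uqcrh (89 residues) of complex III stood at -4.01 and -2.72, and Atp5g3, a subunit of the ATP synthase ring, at 1.95. Length did not cover every member: Cox7a2l, a factor of supercomplex assembly with 111 residues and a pyrimidine start shown above, had 88.7, 113 and 113 CPM in polysomes, against 1749.8, 2301 and 2545 CPM in subpolysomes (log2 -4.38, SE 0.0853). Of mitosis genes, the 11 under 400 residues had a median of 1.31, with Aurkb at 2.05, and the 40 longer ones -0.40, with Kif14, a kinesin at low counts, at -1.997; the median of all 51, -0.31, becomes 0.53 with total-count scaling. These splits by length were made after the values were seen.

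Proteasome subunits were the list highest in polysomes. Of 37 tested, 33 were higher (36.1% of all genes were) and 2 lower, 24 of them at least 2-fold higher, with a median log2 ratio of 1.17 and pair medians of 1.14, 1.31 and 1.25. Their median length was 277 residues, and of genes of 200 to under 400 residues 53.6% were higher (median 0.51). The 17 subunits of the core particle had a median of 1.54, the 6 ATPases of the base 1.11 and the 14 other regulatory subunits 1.07. Psmb2, a beta subunit of the core, had 273, 330.4 and 289.8 CPM in polysomes, against 48.7, 56.8 and 53.9 CPM in subpolysomes (log2 2.48, SE 0.0939, adjusted p = 2.24e-17). Psmb1, another beta subunit, had 461, 561 and 574 CPM in polysomes, against 740.0, 903 and 935 CPM in subpolysomes (log2 -0.69, SE 0.077, adjusted p = 1.77e-08). The fractions did not overlap for either, in opposite directions, and Psmb1 turns positive with total-count scaling, at 0.15. Psmd4, a ubiquitin receptor, was the other lower member at -0.46, and was called higher with that scaling, at 0.38.

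Single genes at the high end encoded mostly mid-sized proteins. Of genes with an average log2 CPM of at least 4, the 12 highest were Vsnl1, Atg101, Pcna, Prdx1, Idi1, Snrpb, Hmgb1, Cbr2, Rgs5, Pdcd10, Ap2m1 and Emp1, with log2 ratios from 3.03 to 2.56 and proteins of 160 to 435 residues. Pcna, the sliding clamp of DNA replication, had 105, 126 and 141 CPM in polysomes, against 14.1, 15.5 and 18.8 CPM in subpolysomes (log2 2.94, SE 0.105, adjusted p = 6.79e-18). Prdx1, a peroxiredoxin that removes hydrogen peroxide, had 1537, 2124 and 2318 CPM in polysomes, against 259, 272 and 313 CPM in subpolysomes (log2 2.81, SE 0.0862). Cbr2, a carbonyl reductase, had 2994, 3897 and 3719 CPM in polysomes, against 498, 549.9 and 577 CPM in subpolysomes (log2 2.70, SE 0.0752). In each of these every polysome library exceeded every subpolysome library by more than 4 times. Hmgb1, a chromatin protein, stood at 2.71 and Vsnl1, a neuronal calcium sensor, at 3.03.

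Genes of the G1 phase were high as a list. Of 20 G1 cyclins, their kinases and inhibitors, 13 were higher and 2 lower (median 1.00), where 36.1% of all genes were higher and 33.6% lower. Their median length was 300.5 residues, and of genes of 200 to under 400 residues 53.6% were higher (median 0.51). Ccnd1, cyclin D1, had 1125, 1152 and 1288 CPM in polysomes, against 410.4, 399.8 and 428 CPM in subpolysomes (log2 1.52, SE 0.078, adjusted p = 9.83e-15), with no overlap. Cdkn1a and Cdkn1b, inhibitors of the cyclin-dependent kinases, stood at 0.88 and 1.09, Cdk4 at 0.98 and Cdkn2d at 1.72; Mdm2, the ubiquitin ligase of p53, was lower at -0.99. Of 41 DNA replication genes 21 were higher and 8 lower (median 0.31), from Pcna down to Cdt1, a licensing factor, at -1.96. Mki67, the proliferation marker with 3177 residues, was lower at -1.59, and Myc was higher by a small margin (log2 0.32, SE 0.103, adjusted p = 0.00752), a call lost without the block (adjusted p = 0.0564) and without replicate 3 (0.113).

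Related genes with proteins of near-equal length could differ sharply. Actb and Actg1 encode the cytoplasmic actins of 375 residues each. Actb had 1883, 1819 and 1874 CPM in polysomes, against 1233, 1197 and 1257 CPM in subpolysomes (log2 0.60, SE 0.0702, adjusted p = 4.41e-08). Actg1 had 469, 422 and 443 CPM in polysomes, against 1016, 1102 and 1074 CPM in subpolysomes (log2 -1.26, SE 0.0806, adjusted p = 7.19e-13). Hsp90aa1, a heat shock protein of 733 residues, stood at 0.57 and its paralog Hsp90ab1, of 724 residues, at -3.01. These pairs were chosen after their values were seen, and because the members of each are related in sequence, some reads could have been shared between them in the authors' counting.

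Stress mRNAs with regulatory upstream reading frames were mostly lower in polysomes relative to the bulk of genes. These mRNAs hold short reading frames ahead of the main one, which keep ribosomes from it until eIF2 is phosphorylated. Of 12, 9 were lower and 1 higher (33.6 and 36.1% of all genes were), with a median of -0.60 that becomes 0.25 with total-count scaling. Atf4, the transcription factor of the integrated stress response, had 169, 169 and 172 CPM in polysomes, against 695, 653 and 775 CPM in subpolysomes (log2 -2.05, SE 0.0858, adjusted p = 1.71e-16). Ddit3, the factor CHOP, had 10.1, 9.93 and 9.07 CPM in polysomes, against 71.7, 68.1 and 71.3 CPM in subpolysomes (log2 -2.86, SE 0.112, adjusted p = 4.26e-17). For both the fractions stood well apart. Atf5, a relative of Atf4, stood at -1.86 and Ppp1r15a, which directs the phosphatase of eIF2, at -1.29. Trib3, a target of these factors, was the higher member, with 15.5, 13.98 and 18.4 CPM in polysomes, against 7.20, 6.78 and 6.16 CPM in subpolysomes (log2 1.24, SE 0.15). Across all genes the number of upstream ATG codons made little difference: medians ran from 0.11 for 6234 genes with none to -0.03 for 768 genes with 5 or more.

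Ferritin mRNAs carry an iron-responsive element, a hairpin near the cap that blocks initiation when iron regulatory proteins bind it. The loop letters CAGTGN (capitals) are shown with their surroundings in 30 bases of the 5′ UTR of 3 such mRNAs, from the same annotation.
Fth1 (chr19:9982732-9982761, plus strand): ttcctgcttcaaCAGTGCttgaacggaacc
Ftl1 (chr7:45459778-45459807, minus strand): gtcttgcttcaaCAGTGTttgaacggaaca
Slc40a1 (chr1:45925464-45925493, minus strand): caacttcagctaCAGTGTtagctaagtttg
CAGTGN alone stands in the first 150 transcribed bases of 17.5% of 12266 genes, so the letters describe these windows and do not pick out a working element. Fth1, ferritin heavy chain, had 103, 80.7 and 89.4 CPM in polysomes, against 642, 553 and 536 CPM in subpolysomes (log2 -2.67, SE 0.0894, adjusted p = 1.83e-18). Ftl1, ferritin light chain, had 279, 302 and 402 CPM in polysomes, against 1242, 1319 and 1445 CPM in subpolysomes (log2 -2.04, SE 0.0835). Slc40a1, the iron exporter ferroportin, had 17.6, 22.4 and 22.6 CPM in polysomes, against 90.2, 133 and 131 CPM in subpolysomes (log2 -2.49, SE 0.102). All 3 were lower in every polysome library, and ferritin genes also have processed copies. Tfrc, the transferrin receptor, whose elements lie in the 3′ UTR, stood at -0.27, and Hmox1, haem oxygenase, at 0.96. Of the 9 genes of the iron list 4 were lower and 2 higher, with a median of -0.18 that becomes 0.66 with total-count scaling.

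Other mRNAs with known controls of translation gave mixed values. In polyamine synthesis, Odc1, the first enzyme, stood at -0.66 and Sat1, the acetyltransferase, at -1.44, while Azin1, which frees ornithine decarboxylase from its antizyme, was higher at 1.74. Of 20 selenoproteins, which read a UGA codon as selenocysteine, 9 were higher and 7 lower (median 0.33); Gpx1, a glutathione peroxidase, stood at -1.49 and Sephs2, which makes the selenium donor, at 1.81. Of 31 immediate early genes, whose mRNAs are short-lived, 16 were lower and 8 higher, with a median of -0.39 that becomes 0.45 with total-count scaling. Zfp36, which destabilises AU-rich mRNAs, stood at -4.002 and Jund at -2.55, against Junb at 0.92 and Maff at 2.20. Among splicing factors, the 10 SRSF genes held 8 higher and none lower (36.1 and 33.6% of all genes were), with a median of 0.87. Their median length was 243 residues, and of genes of 200 to under 400 residues 53.6% were higher (median 0.51). Of the 4 genes of the CLK kinases, which phosphorylate them, 3 were lower, with Clk1 at -2.43.

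Metabolic and chaperone genes spread widely within their lists. Of 17 glycolysis enzymes 6 were higher and 6 lower, with a median of -0.05 that becomes 0.79 with total-count scaling. Gpi1, the isomerase of the second step, had 248, 225 and 242 CPM in polysomes, against 2252, 2686 and 2987 CPM in subpolysomes (log2 -3.46, SE 0.0895), whereas Tpi1, the triose phosphate isomerase, had 1658, 1766 and 1939.9 CPM in polysomes, against 424, 449 and 453 CPM in subpolysomes (log2 2.01, SE 0.0763). Enzymes of 1 pathway thus lay at opposite ends, with no overlap of the fractions for either gene. Of 24 cholesterol synthesis genes 11 were higher and 7 lower (median 0.04), from Idi1, an isomerase, at 2.81 to Mvd, a decarboxylase, at -2.89. Of the 8 subunits of the CCT chaperonin, which folds actin and tubulin, 5 were lower and 1 higher (33.6 and 36.1% of all genes were). Their median was -1.04, with Cct2 at -1.78. The median of the whole chaperonin and heat shock list, -0.07, becomes 0.77 with total-count scaling. Hspa8, the constitutive heat shock protein, had 399.6, 443 and 397 CPM in polysomes, against 2679, 2774 and 2778 CPM in subpolysomes (log2 -2.73, SE 0.0758), and Hspb1, a small heat shock protein, stood at 2.25.

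Cytoskeletal and immune lists gave no shared direction. Of 31 actin, tubulin and actin-binding genes 13 were higher and 17 lower, with a median of -0.35 that becomes 0.49 with total-count scaling. Pfn1, profilin, which binds actin monomers as the thymosins do, had 1083, 1141 and 1292 CPM in polysomes, against 302, 268 and 292 CPM in subpolysomes (log2 2.03, SE 0.0841), opposite to Tmsb4x. Of 30 cytokine and chemokine genes 11 were higher and 10 lower (median 0.08), from Cxcl5, a chemokine of neutrophils, at 1.82 to Ccl5, a chemokine of T cells, at -3.29. Of 33 interferon-stimulated genes 9 were higher and 7 lower (median 0.19), with Isg15, a ubiquitin-like protein, at 2.18. Of 17 integrin genes 4 were higher and 4 lower (median 0.21), with Itgb1 at 0.86 and Itgb4, the beta chain of hemidesmosomes, at -0.72. Replication-dependent histone mRNAs, which lack a poly(A) tail, were scarce: 23 of 67 were tested, 3 higher and 3 lower, with a median of -0.14 that becomes 0.68 with total-count scaling.

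Numbered zinc finger genes (Zfp), most of which encode DNA-binding proteins, were low as a list, chosen by symbol and so including Zfp36, which binds RNA. Of 302 such genes 160 were lower and 47 higher (33.6 and 36.1% of all genes were), with a median of -0.51 that becomes 0.33 with total-count scaling. That scaling moves nearly all genes alike, so it cannot test the place of the list below the median of all genes. Those of 400 to under 800 residues had a median of -0.48, against 0.10 for all genes of that length given above. At least 2-fold lower were 80 (17.7% of all genes were) and at least 2-fold higher 12 (15.7% of all genes).

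Keratin genes, which encode the intermediate filaments of epithelia, were mostly lower in polysomes or not called. Of 27 keratin genes 16 were lower and 1 higher (33.6 and 36.1% of all genes were), with a median of -0.73 that becomes 0.11 with total-count scaling. Krt5, the keratin of basal cells, did not pass the test, with 3878, 3096 and 3395 CPM in polysomes, against 3916, 3593 and 3748 CPM in subpolysomes (log2 -0.12, adjusted p = 0.0951). It was called lower with a minimum of 10 CPM (-0.27, adjusted p = 0.000394) and with scaling outside the ribosomal protein and TOP mRNAs (-0.15, adjusted p = 0.0462), and higher with total-count scaling, at 0.72. Its partner Krt14 had 1499, 1539.8 and 1808 CPM in polysomes, against 4681, 5227 and 5193 CPM in subpolysomes (log2 -1.64, SE 0.0685, adjusted p = 1.63e-16). Krt18, of luminal cells, had 212, 227 and 276 CPM in polysomes, against 1005, 1179 and 1302 CPM in subpolysomes (log2 -2.29, SE 0.0813, adjusted p = 6.45e-18). The fractions did not overlap for Krt14 or for Krt18. Krt8, the partner of Krt18, stood at -1.69, Krt19 at -1.13 and Krt15 at -0.27. Krt7, the single higher member at 0.17, lost its call in 8 of 12 alternatives, DESeq2 among them.

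Uroplakins, the plaque proteins of the bladder surface, were higher in polysomes where they passed, with a list median near that of genes of their length. Of 6 tested, 4 were higher and none lower (median 0.53), where 36.1% of all genes were higher. Their median length was 258.5 residues, and genes of 200 to under 400 residues had a median of 0.51, with 53.6% higher. Upk3a had 35.5, 41.4 and 51.03 CPM in polysomes, against 13.9, 14.1 and 18.9 CPM in subpolysomes (log2 1.45, SE 0.114, adjusted p = 3.51e-11). Upk1b had 111, 102 and 106 CPM in polysomes, against 75.5, 76.8 and 73.2 CPM in subpolysomes (log2 0.50, SE 0.0937, adjusted p = 4.32e-05), and Upk1a stood at 0.51. Upk2, at 3.41, 2.63 and 3.64 CPM in polysomes, against 2.25, 2.13 and 2.19 CPM in subpolysomes, did not pass (adjusted p = 0.0664), but did with total-count scaling (1.23e-05), with no filter (0.0469) and with all 12 fraction libraries fitted together (0.0114). The 10 other luminal markers held 6 lower genes and 1 higher one, among them the transcription factor Gata3 at -1.70 and the nuclear receptor Pparg at -0.54. The median of all 15 luminal markers, -0.15, becomes 0.69 with total-count scaling. Of 12 basal markers 9 were lower and 2 higher (33.6 and 36.1% of all genes were). Their median of -0.40 becomes 0.45 with total-count scaling, and Trp63, the factor p63, stood at -0.29.

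Junction and matrix genes divided by family, and the families also differ in protein length. Median lengths were 219 residues for claudins, 1057.5 for desmosome and plakin genes and 1707 for matrix genes. All genes of 200 to under 400, 800 to under 1600 and 1600 or more residues had medians of 0.51, -0.34 and -0.57. How far length goes with this division was not tested. Of 7 claudins, the strands of tight junctions, 6 were higher and none lower (36.1 and 33.6% of all genes were). Their median was 1.16, with Cldn7 at 1.94 and Cldn4 at 1.16. Cgn, cingulin, a long tight junction adaptor of 1192 residues, was lower at -1.32. Of 16 desmosome and plakin genes 9 were lower and 2 higher, with a median of -0.41 that becomes 0.43 with total-count scaling, and Ppl, periplakin, stood at -1.89. Of 23 matrix genes, many of them very long, 16 were lower and 2 higher (33.6 and 36.1% of all genes were), with a median of -0.76 that becomes 0.08 with total-count scaling; Agrn, agrin, stood at -2.19 and Sparc, a short matrix glycoprotein of 302 residues, at 1.05. Among 32 chaperones and translocon genes of the endoplasmic reticulum 19 were higher and 7 lower (median 0.33), from Dnajb11 at 1.70 to Ost4 at the low end. Gapdh, often used as a control gene, was lower at -1.15, or -0.31 with total-count scaling.

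Arid1a, the gene the series removes, encodes a large subunit of the BAF chromatin remodelling complex with 2283 residues. It had 28.7, 20.6 and 18.003 CPM in polysomes, against 52.98, 54.1 and 48.3 CPM in subpolysomes (log2 -1.23, SE 0.118, adjusted p = 1.2e-09), every polysome library below every subpolysome library on this scale. With total-count scaling the log2 ratio was -0.39 and the fractions overlapped. The values were then 40.4, 27.6 and 22.9 CPM in polysomes, against 42.9, 39.9 and 33.7 CPM in subpolysomes. Of 23 BAF genes 9 were higher and 6 lower (median 0.21), from Actl6a, a short actin-like subunit, at 2.03 to Smarcc2, a core scaffold, at -1.64.

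The same comparison in the organoids labelled KO gave close to the same order. Scaled over the 12 fraction libraries, Arid1a had 20.2, 16.4 and 12.03 CPM in KO polysomes and 66.4, 55.97 and 54.1 CPM in KO subpolysomes, against 28.9, 20.7 and 18.1 CPM in WT polysomes and 52.9, 53.95 and 48.2 CPM in WT subpolysomes, so its counts over the whole gene were not absent in KO. Every KO subpolysome library lay above every WT one by a small margin, and in polysomes the genotypes overlapped although each KO library was below the WT library of its number; which part was deleted is not given. Across 12847 genes the log2 ratios of the genotypes had a Spearman's rho of 0.91, as a description. Of 4640 genes higher in WT polysomes 4056 (87.4%) were called higher in KO polysomes and 3 lower, and of 4320 lower genes 3648 (84.4%) were called lower and 3 higher. Ribosomal protein mRNAs had a median of -3.54 in KO and -3.60 in WT, proteasome subunits 1.18 in KO and 1.17 in WT, keratins -0.58 in KO and -0.73 in WT. In the test of the difference itself, with genotype and replicate as a block, 12 of 13392 genes (0.0896%) had a ratio that differed between KO and WT, 6 lower and 6 higher in KO. The 6 lower included Mir6240 (-4.30) and Rn45s, the ribosomal RNA precursor (-3.05), which are not mRNAs. Rn45s varied widely between replicates, with 12004, 1563 and 21393 CPM in WT polysomes and 12228, 22370 and 77181 CPM in KO subpolysomes. Without the block 1 gene passed, and without the replicate 2 libraries 3 did. None of these 12 belongs to the ribosomal protein, TOP or proteasome lists. With 0.0896% of genes called, few or none are likely in lists of 82, 21 and 37 genes, so their absence is uninformative.

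**Figure D5:**
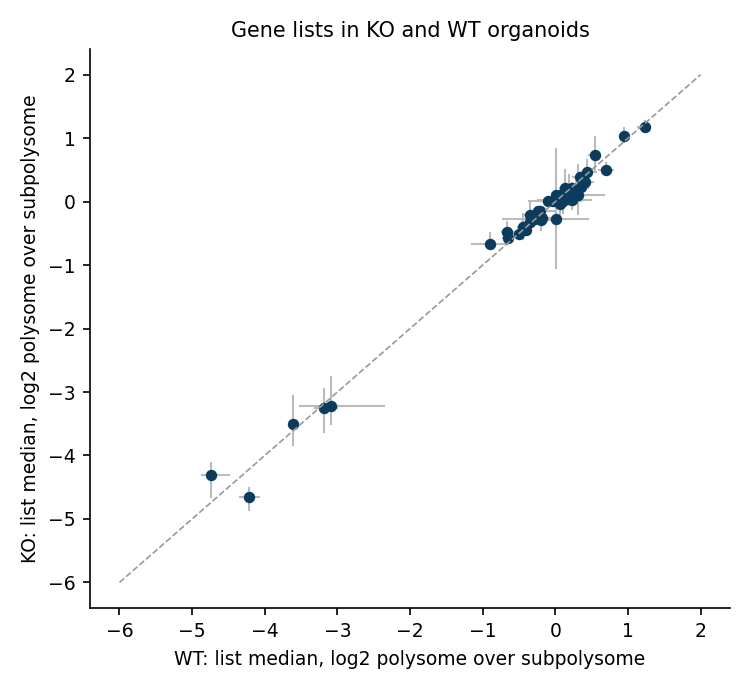
Median log2 ratio of polysome over subpolysome of 41 gene lists in organoids labelled KO (y axis) and WT (x axis); each point is the mean of the 3 pair medians, grey lines run from the lowest to the highest pair, and the dashed line marks equal values. The points follow the dashed line from the noncoding RNA lists at the lower left to proteasome subunits at the upper right.

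The genes that differed included 4 that are described here, chosen after their values were seen. Ttll5, a tubulin glutamylase, had 12.2, 13.7 and 11.04 CPM in KO polysomes and 20.8, 25.003 and 20.8 CPM in KO subpolysomes, against 31.9, 40.4 and 37.6 CPM in WT polysomes and 103, 142 and 171 CPM in WT subpolysomes (difference of log2 ratios, KO minus WT, 1.04, SE 0.158, edgeR adjusted p = 0.00359). Its ratio was below 0 in both genotypes and less so in KO. Rsrp1, a serine and arginine rich protein, had 9.14, 7.23 and 7.48 CPM in KO polysomes and 26.6, 21.1 and 24.1 CPM in KO subpolysomes, against 20.3, 16.1 and 11.8 CPM in WT polysomes and 24.7, 21.7 and 15.5 CPM in WT subpolysomes (KO minus WT -1.22, SE 0.179, adjusted p = 0.00359). Wsb1, a substrate adaptor of a ubiquitin ligase, differed by -0.90 (SE 0.146, adjusted p = 0.00573), with a ratio of -1.06 in KO and -0.17 in WT. Spp1, osteopontin, differed by -0.98 (SE 0.174, adjusted p = 0.0126), with a ratio of 1.403 in KO and 2.37 in WT.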

How the data were processed

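RNA of polysome and subpolysome gradient fractions was taken up on silica columns with DNase treatment, per the labels' protocols. The deposited values are unnormalised read counts for 24421 gene symbols, made with Bowtie and HTSeq on mm10 per the submitters' processing notes. Versions, the annotation, strand, the treatment of multi-mapping reads, and whether a spliced aligner was used are, in the sources used here, not given.

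Counts were analysed with edgeR 4.0.16 in R 4.3.3. Genes passing filterByExpr were scaled by TMM and fitted with the quasi-likelihood test, polysome minus subpolysome, with replicate number as a block; p-values were adjusted by Benjamini and Hochberg over all genes tested. The numbers were taken to pair the samples. Deviations from the group means correlated at 0.366, 0.101 and 0.251 between same-numbered libraries. Between libraries of different numbers the values ran from -0.312 to 0.083, so the pairing of replicate 2 stands little above a mismatch. Values printed for genes are TMM-scaled CPM, and the marker sums are CPM without that scaling. The test of KO minus WT used 12 libraries. DESeq2 1.42.0 was an alternative. In simulated data with the mean counts of these libraries, 198 of 12727 genes were changed, with no replicate effect. Of those changed by a log2 of 1, 77.8% were recovered, and of those changed by 0.5, 37.4%. In a like simulation of the KO minus WT test, 48.0 and 1% were recovered. False calls were 8.06 and 9.43% of calls in these tests, above the 5% aimed for. Far more genes differ between the real fractions, so the rates of the first simulation do not describe the calls made here. The labels name no batch, so a batch of preparation and the fraction cannot be told apart.

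The members and the 46 gene lists were chosen with earlier results of these data known. Splits of lists by TOP membership, subunit, family or length were made after the values were seen. Named genes are the 12 highest and 12 lowest with an average log2 CPM of at least 4, the 3 most abundant in total RNA and the highest and lowest called of each list, a fixed set of 35, and the 5 shortest and 5 longest proteins; some genes of these sets are not reported here. Chosen after their values were seen were Actg1, Btf3, Dars, Eif3a, Eif3b, Eif3e, Eif3h, Eif4a2, Eif4e, Gata3, Hsp90aa1, Jund, Krt8, Pdcd4, Pparg, Psmd4, Rpl30, Rsrp1, Slc40a1, Spp1, Tfrc, Trp63, Ttll5, Upk2, Uqcr10, Uqcrh, Wars and Wsb1. Protein lengths and transcript starts come from GENCODE vM21 (99.4% of genes had a start); the RefSeq promoter table covered 79.6% of genes, below 80%, so a check with it is void.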

Additional observations from a re-analysis of the deposited data

Results flagged for a closer look

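The polysome to subpolysome ratio of 4 genes named in the text differed between the genotypes by the test of the difference itself. On the log2 scale, KO minus WT, it was 1.04 for Ttll5, -1.22 for Rsrp1, -0.98 for Spp1 and -0.90 for Wsb1. Over 7 alternatives the edgeR or DESeq2 adjusted p ran from 5.66e-07 to 0.169 for Ttll5, from 1.49e-06 to 0.209 for Rsrp1, from 0.000132 to 0.773 for Spp1 and from 6.04e-06 to 0.227 for Wsb1. The difference kept its sign in all 7 for each gene and passed in 5, 6, 3 and 5 of them. Groups of 3 libraries are too small for a test of single outlying samples.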

How the results depend on the processing

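With libraries scaled by total counts alone, 8253 genes were higher and 1692 lower in polysomes, 5565 and 886 of them at least 2-fold. Of 141 named genes 15 then turned positive on the log2 scale: Btf3 to 0.76, Dst to 0.17, Flna to 0.57, Itgb4 to 0.13, Krt15 to 0.58, Krt5 to 0.72, Lama3 to 0.078, Odc1 to 0.18, Pparg to 0.30, Psmb1 to 0.15, Psmd4 to 0.38, Rsrp1 to 0.46, Tfrc to 0.57, Trp63 to 0.55 and Wsb1 to 0.67. No named gene turned under the other alternatives run. List medians did change sign under them, in 6 of 40 lists with the minimum of 10 CPM in 3 libraries. Of 41 lists, 4 changed sign without replicate 3, 3 without replicate 2 and 2 with DESeq2. Each other alternative changed the sign of 1 list, and these changes are not marked in the text above. A minimum of 10 CPM in 3 libraries left 1308 genes at least 2-fold higher, with fewer genes tested. The other counts stayed within 1.5 times: leaving out 1 replicate gave 4293 to 4410 genes higher and 3910 to 4136 lower, 1991 to 2034 at least 2-fold higher and 2129 to 2320 at least 2-fold lower. Without the replicate block 4411 genes were higher and 4211 lower, and Krt15, Krt7, Myc, Rsrp1 and Tfrc lost their call. Krt7 also lost it with DESeq2, and Btf3, Krt5 and Wsb1 gained a call as lower with the minimum of 10 CPM. Leaving out 1 replicate cost Cxcl5, Eif3a, Flna, Kif14, Krt7, Myc and Tfrc their call in at least 1 case. The count of genes whose ratio differed between KO and WT was 12, but 1 without the block, 47 without a filter, 34 with DESeq2, and 3 to 11 when 1 replicate was left out. All ratios are relative to the bulk of genes, since the RNA yield of each fraction was not used here, and transcript starts and protein lengths are annotated, not measured. Genes of a few counts, small noncoding RNAs among them, have wide errors at this depth.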
